A study of Mus musculus with 28 samples.

Results

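Macrophages sorted from kidneys lacking both Fcgr2b and Rhbdf2 (double mutant, genotype FcR2b-/- Rhbdf2-/-) were compared with macrophages from kidneys lacking Rhbdf2 alone (Rhbdf2-/-). Each group held 3 libraries, so the comparison used 6 of the 28 RNA sequencing libraries of the series, chosen by their genotype label. Both groups lacked Rhbdf2, and the comparison asks what loss of Fcgr2b changes in macrophages that have no iRhom2. All mice were female C57BL/6 littermates aged 7 to 9 months. The sort kept cells with CD45, high F4/80 and CD11b and without Ly6G and Ly6C, after collagenase digestion and a Percoll gradient. Wild-type and Fcgr2b-/- macrophages, 3 libraries each, are used below as the matching pair in which Rhbdf2 is intact. Whether the libraries of a group came from different mice is not in the labels, so the p-values reflect only how these samples vary, and some of that may be technical. The labels give neither the deleted part of either gene nor whether the deletions are limited to a cell type.

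Fcgr2b encodes the inhibitory receptor for IgG, which damps signals from the activating Fc receptors on macrophages and from the antigen receptor on B cells, and mice without it develop lupus-like autoimmunity with nephritis. Rhbdf2 encodes iRhom2, a rhomboid-like protein without protease activity, which escorts ADAM17 to the surface of immune cells. The protease ADAM17 there cuts loose TNF and ligands of the EGF receptor, and kidney macrophages are a major source of such signals in nephritis.

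The Rhbdf2-/- libraries held 32065649 to 32261149 reads in the listed genes, as worked out from the deposited values, and the double-mutant libraries 32951681 to 33865108, so depth was near equal. Values are given below as CPM, reads of a gene scaled to a common library total, in the order of replicates 1, 2 and 3 of each group. Emr1, which encodes F4/80, stood at 2601, 2959 and 2927 CPM in Rhbdf2-/- and at 3117, 3143 and 4246 CPM in double-mutant libraries, so this sort marker was high in all 6. Ly6g and Ly6c2 were not analysed here. Reads of the targeted genes were present in the mutants. Rhbdf2 (chr11:116598164-116627019, mm10) stood at 13.4, 15.5 and 13.9 CPM in Rhbdf2-/- and at 26.6, 21.6 and 18.1 CPM in double-mutant libraries, beside 16.2 to 25.0 CPM in wild-type. Fcgr2b (chr1:170960557-170976547, mm10) stood at 612, 649 and 715 CPM in Rhbdf2-/- and at 455, 479 and 550 CPM in double-mutant libraries. The Fcgr2b values did not overlap, but the difference did not pass the test (log2 change -0.41 ± 0.16 SE, n = 3 per group, adjusted p = 0.0923). Without the position of the deletions, gene-level reads do not check the labels for either gene.

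Loss of Fcgr2b in macrophages without iRhom2 went with a broad change. Of 10523 genes, 968 rose (9.2%) and 950 fell (9.03%), together 18.2%, with limma and Benjamini-Hochberg adjustment at 0.05. Changes are differences of mean log2(CPM+1), a scale on which changes of weakly expressed genes look too small. The median change was -1.11 among lower genes and 0.62 among higher genes. A change of at least 1 was reached by 550 of the lower and 241 of the higher genes, and a change of at least 2 by 62 and 67. Lower genes were expressed more weakly, at a median of 3.72 log2 CPM beside 5.88 for higher genes and 4.33 for genes not called. The median over all genes was -0.02. Values of the groups did not overlap for 960 of the 968 higher genes and 931 of the 950 lower genes, against 20.5% and 20.8% of all genes separated in those directions (41.3% in either). Calls and separation come from the same libraries, so the separation of called genes adds no support to the calls. With all libraries brought to equal medians, 1450 genes were higher and 769 lower, and the median of all genes then stood at 0.08.

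The counts rested on every library to some extent. Without Rhbdf2-/- replicates 1, 2 and 3 in turn, 374, 496 and 410 genes were higher and 293, 384 and 222 were lower. Without double-mutant replicates 1, 2 and 3 in turn, 380, 587 and 830 were higher and 218, 713 and 825 were lower. The double-mutant libraries were not alike in the size of the change. Among the higher genes the median difference from the Rhbdf2-/- mean was 0.72, 0.63 and 0.58 in replicates 1, 2 and 3, and among the lower genes it was -1.37, -0.96 and -0.92. Replicate 1 thus stood farthest from the Rhbdf2-/- libraries in both directions. On the first principal component of all 12 macrophage libraries (62.4% of variance), Rhbdf2-/- libraries lay at -41.9 to -38.8, double-mutant libraries at 8.21 to 29.5 and Fcgr2b-/- libraries at 52.0 to 75.0. Wild-type replicates 1, 2 and 3 lay at -51.8, -45.3 and -24.4, so replicate 3 stood apart.

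**Figure D1:**
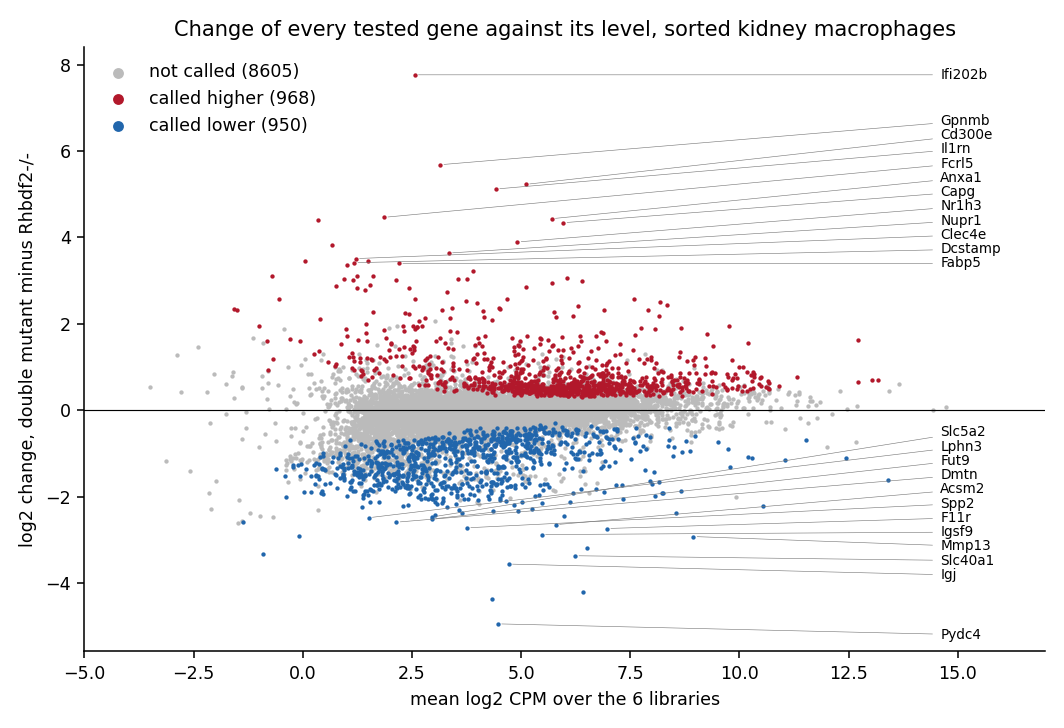
Log2 change of double-mutant against Rhbdf2-/- macrophages (y axis, log2(CPM+1) scale) against the mean log2 CPM over the 6 libraries (x axis), each point a gene. Genes that rose (968, red) and fell (950, blue) lie on both sides of the 8605 genes not called (grey), and Ifi202b stands highest.

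The largest rise was that of Ifi202b, a member of the interferon-inducible p200 family on chromosome 1 (chr1:173962568-173982844, mm10). It had 3, 3 and 5 reads in Rhbdf2-/- libraries and 8310, 7525 and 7667 reads in double-mutant libraries, a change of 7.77 ± 0.16 SE (n = 3 per group, adjusted p = 3.3e-11). Fcgr2b-/- macrophages had 151, 197 and 161 CPM and wild-type 0.585, 0.169 and 0.0906 CPM, so the gene was near 0 in each group with an intact Fcgr2b. Gpnmb, Cd300e and Il1rn also rose steeply. Gpnmb, a glycoprotein of lysosome-rich macrophages, stood at 0.587, 0.43 and 2.13 CPM in Rhbdf2-/- and at 475, 139 and 13.5 CPM in double-mutant libraries (5.69 ± 0.99, adjusted p = 0.0059). The groups did not overlap, but the double-mutant libraries spread widely, with replicate 3 lowest.

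Cd300e, an activating receptor of monocytes, was at 3.58, 5.59 and 6.84 CPM against 356, 239 and 145 CPM (5.23 ± 0.58, adjusted p = 0.00038). Il1rn, which encodes the antagonist of the interleukin-1 receptor, was at 3.08, 3.53 and 2.97 CPM against 256, 204 and 57.8 CPM (5.12 ± 0.45, adjusted p = 9.1e-05). In both genes every double-mutant library lay far above every Rhbdf2-/- library. Fcrl5, an Fc receptor-like gene best known from B cells, rose by 4.47 ± 0.44, and Capg, which caps actin filaments, rose by 4.34 ± 0.44. Dcstamp, needed for the fusion of macrophages into multinucleated cells, rose by 3.42 ± 0.61, and Nupr1, a stress-responsive nuclear protein, rose by 3.64 ± 0.49. Gpnmb, Fcrl5, Dcstamp and Clec4e were no longer called when recovered reads were fitted with voom.

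The largest fall lay close to the largest rise on chromosome 1. Pydc4, a pyrin-domain gene of the same p200 cluster (chr1:173566283-173599274, mm10), stood at 146, 160 and 124 CPM in Rhbdf2-/- and at 2.18, 10.3 and 1.81 CPM in double-mutant libraries, and fell by 4.95 ± 0.40 (adjusted p = 4.8e-05). Slc40a1, which encodes the iron exporter ferroportin, went from 425, 358 and 100 CPM to 20.7, 43.2 and 13.5 CPM (-3.37 ± 0.61, adjusted p = 0.0068). Mmp13, a collagenase, went from 1148, 1281 and 1720 CPM to 67.4, 230 and 364 CPM (-2.93 ± 0.55, adjusted p = 0.0079). None of the 3 genes overlapped between groups, and double-mutant replicate 1 was lowest for Mmp13 while Rhbdf2-/- replicate 3 was lowest of its group for Slc40a1. Other large falls, described below, were those of Igsf9 (-2.88) and F11r (-2.74) near Fcgr2b and of the tubular transporter Slc5a2 (-2.47).

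**Figure D2:**
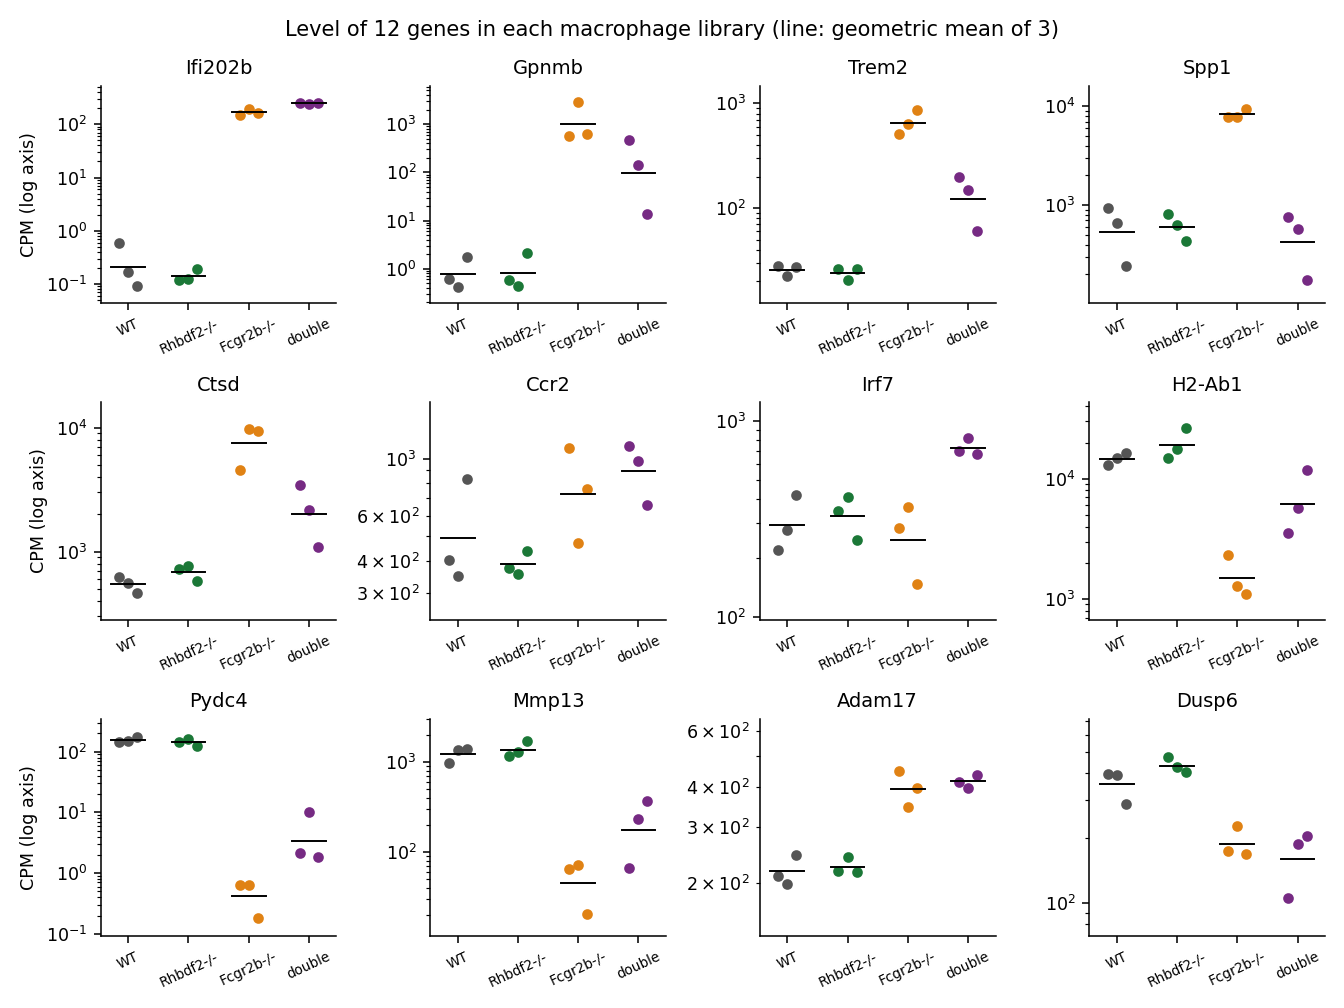
CPM on a log axis of 12 genes in the wild-type, Rhbdf2-/-, Fcgr2b-/- and double-mutant macrophage libraries, each point a library and each line the geometric mean of 3. Ifi202b at 244 to 253 CPM in double-mutant libraries is far above its Rhbdf2-/- libraries, while Spp1 overlaps between these groups.

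Most genes listed for lipid-associated and repair macrophages rose. Of 28 measured members, 19 rose and 0 fell, so 67.9% were called beside 18.2% of all genes. The list median was 1.5 beside -0.02 over all genes. With Rhbdf2-/- replicates 1 to 3 and then double-mutant replicates 1 to 3 left out in turn, the count of rises was 13, 15, 14, 13, 15 and 18. Trem2, a lipid-sensing receptor, stood at 26.2, 20.8 and 25.9 CPM in Rhbdf2-/- and at 199, 148 and 60.0 CPM in double-mutant libraries (2.28 ± 0.34, adjusted p = 0.0024). Nr1h3, the oxysterol receptor LXR alpha, stood at 6.51, 6.18 and 9.90 CPM against 197, 152 and 62.9 CPM (3.90 ± 0.39, adjusted p = 0.00021). Lpl, the lipoprotein lipase, stood at 522, 510 and 328 CPM against 1922, 1489 and 1782 CPM (1.95 ± 0.22, adjusted p = 0.00046).

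Anxa1, a calcium-binding protein that restrains inflammation, rose by 4.43 ± 0.38, the tetraspanin Cd9 by 2.52 ± 0.24 and the lipid-activated nuclear receptor Pparg by 1.63 ± 0.19. Double-mutant replicate 3 was the lowest of its group for Gpnmb, Trem2, Nr1h3, Anxa1 and Il1rn, yet lay above every Rhbdf2-/- library. Spp1, which encodes osteopontin and marks the same macrophage state, did not follow. It stood at 813, 628 and 438 CPM in Rhbdf2-/- and at 766, 572 and 174 CPM in double-mutant libraries, and the groups overlapped (-0.51 ± 0.54, adjusted p = 0.53).

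Of 37 measured lysosomal enzymes and membrane proteins, 13 rose, 0 fell and 24 were not called, with a median of 0.31. Called were 35.1%, beside 18.2% of all genes. Lipa, the acid lipase that frees cholesterol and fatty acids, went up evenly in all libraries, from 746, 733 and 693 CPM to 1451, 1485 and 1408 CPM (1.00 ± 0.11, adjusted p = 0.00046). Npc2, which moves cholesterol out of the lysosome, rose by 0.82 ± 0.14, and Galns, a sulfatase, by 0.94 ± 0.19. The protease cathepsin D, from Ctsd, went from 720, 761 and 579.2 CPM to 3430, 2184 and 1079 CPM (1.56 ± 0.38, adjusted p = 0.0195). Its call was lost without Rhbdf2-/- replicate 1, Rhbdf2-/- replicate 3 or double-mutant replicate 1. The number of lysosomal genes that rose fell to 4, 6, 5, 4, 6 and 9 when Rhbdf2-/- replicates 1 to 3 and double-mutant replicates 1 to 3 were left out in turn. It was 8 with quantile normalization and 11 with voom.

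Many lysosomal promoters carry the element bound by TFEB and its relatives, searched here as TCACGTG on both strands (CACGTGA on the other). In RefSeq windows of 300 bases, from 250 before to 50 after each start (GRCm38.p6), 3.77% of all windows and 6.18% of windows of tested genes held it. Among lysosomal genes 10 of 31 windows did (32.3%, from 26 of 37 members that matched). It stood in 2 of 8 windows of lysosomal genes that rose (25.0%) and in 8 of 23 windows of those not called (34.8%). The windows of the risen genes that hold it, Ctsd at chr7:142387778-142388077 and Gla at chrX:134600956-134601255 (both minus strand), are shown 5′ to 3′ with the matches in capitals. In Gla, which encodes alpha-galactosidase and was chosen for its match, both runs are TCACGTGA, which reads as a match on either strand.
Ctsd: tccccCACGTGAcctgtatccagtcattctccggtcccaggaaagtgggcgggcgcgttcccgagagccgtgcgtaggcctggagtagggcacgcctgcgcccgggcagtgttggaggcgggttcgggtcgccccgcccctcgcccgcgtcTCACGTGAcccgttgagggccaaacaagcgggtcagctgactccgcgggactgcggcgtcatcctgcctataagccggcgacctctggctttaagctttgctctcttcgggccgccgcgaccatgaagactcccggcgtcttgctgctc
Gla: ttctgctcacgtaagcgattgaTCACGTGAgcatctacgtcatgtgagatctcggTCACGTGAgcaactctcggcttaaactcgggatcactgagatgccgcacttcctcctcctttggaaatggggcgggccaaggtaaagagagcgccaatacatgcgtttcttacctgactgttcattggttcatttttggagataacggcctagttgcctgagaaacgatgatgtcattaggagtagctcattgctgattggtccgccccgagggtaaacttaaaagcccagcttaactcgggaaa

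Some monocyte genes rose too. Of 19 markers of monocytes and monocyte-derived cells, 7 rose and 1 fell (median 1.09), so 42.1% were called beside 18.2% of all genes. The summed level of these markers went from 4821 to 5839 CPM in Rhbdf2-/- to 13410 to 17440 CPM in double-mutant libraries, most of it Lyz2. In bulk samples, more cells of a type and more RNA per cell cannot be told apart. Lyz2, which encodes lysozyme, stood at 3440, 4291 and 3867 CPM against 13844, 10922 and 11237 CPM (1.63 ± 0.28, adjusted p = 0.0056). Ms4a6d, a membrane protein of myeloid cells, rose by 1.88 ± 0.26. Ccr2, the receptor that draws monocytes from blood, stood at 375, 354.6 and 436 CPM against 1117, 976 and 657 CPM (1.21 ± 0.35, adjusted p = 0.034). These groups did not overlap, but the Ccr2 call held only when double-mutant replicate 3 was the library left out. The number of monocyte markers that rose was 3, 3, 3, 2, 4 and 12 without Rhbdf2-/- replicates 1 to 3 and double-mutant replicates 1 to 3 in turn.

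The classical monocyte gene Chil3 had 1, 0 and 0 reads in Rhbdf2-/- libraries and 160, 88 and 1 reads in double-mutant libraries. Its level thus came from double-mutant replicates 1 and 2. Itgam, which encodes CD11b and was used in the sort, stood at 117, 104 and 195 CPM against 721, 443 and 706 CPM (2.18 ± 0.28, adjusted p = 0.0010). How far the gate or a change in cell makeup enters these values was not tested. Csf1r, the receptor for the growth factor CSF1, stood at 3299, 3176 and 3735 CPM against 2301, 2809 and 3263 CPM and overlapped (-0.30 ± 0.16, adjusted p = 0.21). Of 20 macrophage identity genes 5 rose and 0 fell (median 0.25), so 25% were called beside 18.2% of all genes. Rises numbered 2, 3, 2, 2, 3 and 2 without Rhbdf2-/- replicates 1 to 3 and double-mutant replicates 1 to 3. With quantile normalization 2 rose and with voom 5. The summed level of the 20 genes overlapped, at 174200 to 220000 CPM in Rhbdf2-/- and 164200 to 228200 CPM in double-mutant libraries.

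Among chemokines and their receptors, 8 of 26 rose and 2 fell (median 0.93), so 38.5% were called beside 18.2% of all genes. Ccl9, a chemokine for myeloid cells, stood at 116, 100 and 106 CPM against 674, 537 and 440.8 CPM (2.33 ± 0.17, adjusted p = 3.0e-05). Ccl8, which attracts monocytes, stood at 15.0, 26.6 and 15.3 CPM against 242, 143 and 94.7 CPM (2.96 ± 0.48, adjusted p = 0.0040). Cxcl13, which attracts B cells, stood at 0.0887, 0.0608 and 0.675 CPM against 16.2, 17.5 and 16.4 CPM (3.83 ± 0.43, adjusted p = 0.00042), and was no longer called with voom. No library of either group crossed into the other for these chemokines. The count of rises in this list was 6, 7, 8, 6, 6 and 8 with Rhbdf2-/- replicates 1 to 3 and double-mutant replicates 1 to 3 left out in turn.

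Complement genes gave 5 rises and 0 falls among 17 (median 0.44), which is 29.4% beside 9.2% of all genes that rose. C3, the central component, stood at 13.1, 13.3 and 11.5 CPM against 169, 115 and 46.4 CPM (2.85 ± 0.38, adjusted p = 0.0011). Itgam and Itgb2, the chains of complement receptor CR3, both rose, as did C3ar1, the receptor for the C3a fragment, and Cfp, which encodes properdin. The NADPH oxidase of phagocytes gave 5 rises and 1 fall among 8 (median 0.50), so 75% were called beside 18.2% of all genes. Hvcn1, the proton channel that sustains the oxidase, stood at 33.9, 42.1 and 27.6 CPM against 197, 202 and 162 CPM (2.42 ± 0.17, adjusted p = 3.0e-05). Ncf1, an organiser subunit of the same enzyme, moved the other way, from 33.6, 36.9 and 43.5 CPM to 11.9, 15.4 and 24.8 CPM (-1.14 ± 0.23, adjusted p = 0.011). Without Rhbdf2-/- replicates 1 to 3 and double-mutant replicates 1 to 3 in turn, 3, 3, 2, 3, 3 and 5 oxidase genes rose. With quantile normalization 2 rose and with voom 5.

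Of 15 inflammatory cytokine genes 4 rose and 0 fell (median 0.36). This is 26.7%, beside 9.2% of all genes that rose and 18.2% called in either direction. The 4 were of mixed effect. Il1rn and Il10 restrain inflammation, Igf1 is a growth factor, and Il12b encodes a subunit shared by interleukins 12 and 23. Igf1 stood at 75.2, 86.1 and 53.5 CPM against 197, 196 and 259 CPM (1.60 ± 0.16, adjusted p = 0.00024). Il10 was low, at 0.294, 1.32 and 0.417 CPM against 6.46, 3.10 and 1.45 CPM (1.38 ± 0.38, adjusted p = 0.029). The Il10 groups were separated by a narrow margin, and without Rhbdf2-/- replicate 1, Rhbdf2-/- replicate 3, double-mutant replicate 1 or double-mutant replicate 2 it was not called. Without each of the libraries in the same order as above, 2, 4, 2, 2, 2 and 4 cytokine genes rose.

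Of 21 genes for the iRhom2 and ADAM17 machinery and its shed substrates, 4 rose, 2 fell and 15 were not called (median -0.15), Adam17 being among those that rose. Called were 28.6% of this list, beside 18.2% of all genes. Adam17 stood at 217, 242 and 216 CPM in Rhbdf2-/- and at 414, 397 and 437 CPM in double-mutant libraries (0.89 ± 0.12, adjusted p = 0.0014). Adam10, the related sheddase, rose by 0.54 ± 0.14 (adjusted p = 0.025), a call lost without any library except double-mutant replicate 2. Timp3, an inhibitor of ADAM17, went from 10.1, 7.78 and 17.4 CPM to 3.50, 4.33 and 2.11 CPM (-1.53 ± 0.42, adjusted p = 0.029). The Timp3 call was not recomputed with libraries left out. With voom 1 gene of this list fell instead of 2, and that gene was Il1r2, described next.

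Il1r2, the decoy receptor that ADAM17 sheds, stood at 23.3, 30.9 and 40.1 CPM against 11.8, 6.89 and 9.16 CPM (-1.65 ± 0.23, adjusted p = 0.0015). Adam17 and Il1r2 were each separated between groups and called under every alternative. With each library left out in the same order, 2, 3, 2, 2, 5 and 3 genes of the machinery list rose. Tnf itself stood at 15.0, 17.4 and 17.9 CPM against 32.8, 13.2 and 33.9 CPM, with double-mutant replicate 2 below every Rhbdf2-/- library, and was not called (0.53 ± 0.33, adjusted p = 0.28).

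Genes of the TNF and NF-kB response nevertheless gave 8 rises and 1 fall among 33 (median 0.65), so 27.3% were called beside 18.2% of all genes. Nfkb1, a subunit of NF-kB, stood at 64.7, 63.3 and 62.5 CPM against 159, 108 and 121 CPM (1.00 ± 0.14, adjusted p = 0.0016). Cd40, a costimulatory receptor, stood at 29.1, 41.8 and 32.2 CPM against 123, 111 and 104 CPM (1.69 ± 0.26, adjusted p = 0.0029). Bcl3, Icam1 and Tnip1 also rose, though each lost its call without 3 or more of the 6 libraries. The same omissions left 3, 4, 4, 2, 7 and 7 rises in this list.

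Of 6 measured EGF receptor ligands and receptors, 0 rose and 3 fell (median -1.11), namely Egf, Egfr and Erbb2, while Hbegf was not analysed here. Called were 50% of the 6, beside 18.2% of all genes. Egf stood at 534, 523 and 553 CPM against 83.1, 356 and 80.2 CPM (-2.0 ± 0.61, adjusted p = 0.042). Egf is made by kidney tubules and is also counted among the epithelial markers described below, which moved the same way. The count of falls was 0, 1, 0, 0, 1 and 0 with Rhbdf2-/- replicates 1 to 3 and double-mutant replicates 1 to 3 left out in turn, and Egf itself was then called only without double-mutant replicate 2. With voom the count was 1 and with quantile normalization 2. Among 14 genes of ERK feedback and early response, 2 rose and 3 fell (median 0.18), so 35.7% were called. Dusp6, a phosphatase induced by ERK, stood at 475, 426 and 404 CPM against 106, 188 and 205 CPM (-1.43 ± 0.22, adjusted p = 0.0030). Myc fell by 1.33 ± 0.26, whereas Egr2, an early growth response factor, stood at 7.80, 5.53 and 18.8 CPM against 47.7, 42.1 and 40.4 CPM and rose by 2.09 ± 0.42.

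Fc receptors and the kinases and phosphatases next to them gave 6 rises and 1 fall among 21 (median 0.19). Called were 33.3%, beside 18.2% of all genes. The activating receptors did not move as a set. Fcgr1, the high-affinity receptor, stood at 440.8, 493 and 362 CPM against 689, 618 and 702 CPM (0.64 ± 0.17, adjusted p = 0.029). Fcgr4 moved the other way, from 618, 707 and 625 CPM to 470, 294 and 279 CPM (-0.94 ± 0.26, adjusted p = 0.031). Fcgr3 overlapped at 771, 796 and 749 CPM against 671, 704 and 835 CPM (-0.07 ± 0.20, adjusted p = 0.83). Fcer1g, the signalling chain these receptors share, stood at 1833, 2031 and 2025 CPM against 2788, 2290 and 2560 CPM and was not called (0.37 ± 0.17, adjusted p = 0.13). Fcgr4, Fcgr3 and Fcer1g lie 0.042, 0.075 and 0.253 Mb from Fcgr2b. For such neighbours, linked sequence differences and effects of the lost receptor cannot be told apart.

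The Fcgr4 call was lost without any library except double-mutant replicate 1, and the Fcgr1 call without 4 of the 6, the exceptions being Rhbdf2-/- replicate 2 and double-mutant replicate 2. The kinase Fgr rose in every alternative, from 139, 179 and 154 CPM to 337, 354 and 380 CPM (1.19 ± 0.16, adjusted p = 0.0013). Ptpn6, the phosphatase SHP-1, rose by 0.56 ± 0.13 (adjusted p = 0.015), a call lost without Rhbdf2-/- replicate 1 or 3 or double-mutant replicate 1. Without the libraries in turn, 1, 5, 1, 3, 6 and 4 genes of the Fc receptor list rose, while 2 did with quantile normalization and 6 with voom. Toll-like receptors and nucleic acid sensors gave 7 rises and 1 fall among 32 (median 0.16), so 25% were called beside 18.2% of all genes. Tlr8 stood at 30.4, 34.8 and 31.8 CPM against 76.2, 59.8 and 60.5 CPM (0.99 ± 0.18, adjusted p = 0.0064). Tlr7, the RNA sensor tied to lupus, overlapped at 116, 114 and 139 CPM against 123, 134 and 133 CPM (0.09 ± 0.20, adjusted p = 0.79). Among the sensors 5, 3, 3, 3, 6 and 5 rose under the same omissions.

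Clearance and scavenger receptors split, with 5 rises and 3 falls among 21 (median 0.22), so 38.1% were called beside 18.2% of all genes. Clec12a, an inhibitory lectin that senses dead cells, stood at 113, 170 and 138 CPM against 790, 749 and 719 CPM (2.43 ± 0.26, adjusted p = 0.00036). Clec4e, the activating lectin Mincle, stood at 0.118, 0.214 and 1.64 CPM against 51.4, 25.5 and 2.83 CPM (3.51 ± 0.73, adjusted p = 0.012), with double-mutant replicate 3 close to Rhbdf2-/- replicate 3. Gas6, a bridge between dying cells and their receptors, went from 47.2, 43.4 and 34.6 CPM to 8.91, 18.6 and 13.6 CPM (-1.59 ± 0.32, adjusted p = 0.011). Stab1 and Mfge8, both used in the uptake of apoptotic cells, fell too. In the same order of libraries left out, 3, 4, 3, 3, 3 and 5 of the clearance genes rose and 1, 1, 1, 2, 3 and 3 fell. With voom 2 rose and 2 fell, and with quantile normalization 6 rose and 3 fell.

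Most interferon-stimulated genes were higher in every double-mutant library, but few were called. Of 44 measured, 5 rose and 0 fell (median 0.50). This is 11.4%, beside 9.2% of all genes that rose and 18.2% called in either direction. In 36 of the 44 every double-mutant library lay above every Rhbdf2-/- library, against 20.5% of all genes. Irf7, a regulator of interferon genes, stood at 345, 410 and 246 CPM against 700, 813 and 675 CPM (1.15 ± 0.31, adjusted p = 0.029). Oasl1 went from 32.8, 37.1 and 22.6 CPM to 59.9, 63.2 and 84.0 CPM (1.15 ± 0.27, adjusted p = 0.017). Ifi44 went from 35.7, 37.4 and 33.0 CPM to 101, 92.5 and 91.1 CPM (1.4 ± 0.43, adjusted p = 0.043). The groups were separated in all 3 genes. Leaving out Rhbdf2-/- replicates 1 to 3 and double-mutant replicates 1 to 3 gave 2, 3, 0, 1, 2 and 3 rises, while 14 were called at equal medians and 30 when the 2 groups were fitted alone. Irf7 lost its call without Rhbdf2-/- replicate 1 or 3 or double-mutant replicate 1 or 2, Oasl1 without Rhbdf2-/- replicate 3, and Ifi44 without any one library. Of 13 interferon-induced GTPase genes, 0 were called with limma, 0 had an unadjusted p below 0.05 and 0 were called with voom (median 0.10).

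The interferon response element was searched in the same RefSeq windows on both strands, as GAAA, any 2 bases and GAAA again. It stood in 3.44% of all windows, in 3.24% of windows of tested genes and in 19 of 38 windows of interferon-stimulated genes (50.0%, from 31 of 44 members that matched). Among the members that rose 1 of 4 windows held it, and among those not called 18 of 34 (52.9%). The window of the risen gene that holds it, Ifitm3 at chr7:141010695-141010994 (minus strand, GRCm38.p6), which encodes an antiviral membrane protein, is shown 5′ to 3′ with its matches in capitals. Ifitm3 rose by 1.22 ± 0.28 (adjusted p = 0.016), a call lost without Rhbdf2-/- replicate 3 or double-mutant replicate 1.
Ifitm3: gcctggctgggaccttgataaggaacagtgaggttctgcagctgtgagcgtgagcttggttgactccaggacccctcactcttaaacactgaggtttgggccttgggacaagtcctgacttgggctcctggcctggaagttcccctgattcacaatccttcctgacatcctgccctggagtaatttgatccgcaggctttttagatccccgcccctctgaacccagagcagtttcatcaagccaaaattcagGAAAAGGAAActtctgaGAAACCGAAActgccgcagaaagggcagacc

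Antigen presentation genes did not move together. In class I presentation, 1 of 21 rose and 2 fell, so 14.3% were called beside 18.2% of all genes. B2m, the light chain of class I molecules, stood at 1049, 1145 and 1021 CPM against 1547, 1525 and 1486 CPM (0.50 ± 0.15, adjusted p = 0.036). H2-K1, a heavy chain, stood at 3593, 4191 and 3566 CPM against 2288, 2119 and 2625 CPM (-0.69 ± 0.16, adjusted p = 0.017). Among 15 genes of class II presentation, 2 rose and 3 fell (median -0.04), so 33.3% were called. H2-Ab1, a class II chain, stood at 14756, 17805 and 26341 CPM against 3514, 5662 and 11878 CPM (-1.62 ± 0.41, adjusted p = 0.023). H2-Oa, which tempers peptide loading, fell by 1.54 ± 0.26. The call of B2m was lost without any one library, that of H2-K1 without Rhbdf2-/- replicate 2 or double-mutant replicate 1 or 2, and that of H2-Ab1 without Rhbdf2-/- replicate 2 or 3 or double-mutant replicate 1 or 2. Without the libraries in turn, 2, 1, 1, 1, 1 and 2 class II genes fell. Genes of the MHC, the p200 cluster and the Ms4a6 family have near-identical copies, so their values depend on how reads were assigned.

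Of 19 glycolysis genes 4 rose and 0 fell, and of 30 cell cycle genes 5 rose and 0 fell (median 0.49). The shares were 21.1% and 16.7%, beside 9.2% of all genes that rose and 18.2% called in either direction. Ldha, which makes lactate, rose by 0.43 ± 0.13, and Tubb5, a tubulin of dividing cells, was called in every alternative. Without the libraries in turn, 1, 2, 1, 0, 2 and 6 glycolysis genes and 2, 3, 1, 1, 3 and 4 cell cycle genes rose. Of the glycolysis genes 1 rose with quantile normalization and 4 with voom, and of the cell cycle genes 6 and 2. The call of Ldha held only when double-mutant replicate 3 was the library left out. Of 23 handling stress and immediate early genes, 0 were called with limma or voom and 1 had an unadjusted p below 0.05 (median 0.23), and their summed level overlapped, at 2619 to 5139 CPM in Rhbdf2-/- and 3476 to 4426 CPM in double-mutant libraries.

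Markers of kidney epithelium and of B and plasma cells were among the falls. Of 24 kidney epithelial markers, 0 rose and 12 fell (median -1.65), so 50% were called beside 18.2% of all genes. The summed level of these markers went from 5887 to 7412 CPM in Rhbdf2-/- to 1643 to 4109 CPM in double-mutant libraries. Slc5a2, the glucose transporter of the proximal tubule, stood at 32.8, 16.6 and 16.7 CPM against 4.33, 3.59 and 1.51 CPM (-2.47 ± 0.57, adjusted p = 0.016). Lrp2, the endocytic receptor megalin, stood at 123, 70.4 and 101 CPM against 22.8, 23.4 and 16.8 CPM (-2.15 ± 0.56, adjusted p = 0.025). Double-mutant replicate 2 kept the most epithelial RNA, with Egf at 356 CPM beside 83.1 and 80.2 CPM. The number of epithelial markers that fell was 1, 5, 2, 3, 11 and 3 without Rhbdf2-/- replicates 1 to 3 and double-mutant replicates 1 to 3 in turn, and 7 with voom. Slc5a2 lost its call without Rhbdf2-/- replicate 1, and Lrp2 without Rhbdf2-/- replicate 1 or 3 or double-mutant replicate 1 or 3.

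Of 10 B and plasma cell markers 0 rose and 5 fell, so 50% were called beside 18.2% of all genes. Igkc, the kappa light chain, stood at 222, 770 and 128 CPM against 20.5, 69.4 and 17.8 CPM (-3.20 ± 0.84, adjusted p = 0.026), with replicate 2 highest in each group. Its call was lost without Rhbdf2-/- replicate 1 or 2 or double-mutant replicate 1 or 3. Of these markers 2, 2, 5, 1, 5 and 3 fell when the libraries were left out in that order, while 2 fell with voom and 4 with quantile normalization. The summed B and plasma cell level overlapped, at 1331 to 2292 CPM in Rhbdf2-/- and 1028 to 1376 CPM in double-mutant libraries, while the sums for neutrophil markers were 127.7 to 139.9 CPM and 166.6 to 182.8 CPM. Dendritic cell markers summed to 712.1 to 794.5 CPM and 1012 to 1464 CPM, and T and NK markers, which overlapped, to 371.5 to 1037 CPM and 413.7 to 1111 CPM. Of 4 neutrophil markers 1 rose (Csf3r) and 1 fell (Il1r2), and of 12 dendritic cell markers 1 fell. Of 16 T and NK markers 1 rose, and of 5 erythroid and platelet markers 1 fell. The shares called were 50%, 8.33%, 6.25% and 20% in that order, beside 18.2% of all genes. Of 4 endothelial markers 0 were called with limma or voom, while 1 was higher and 1 lower at an unadjusted p below 0.05. Of 7 fibroblast and matrix markers 0 were called with either, while 1 was higher and 2 were lower at that unadjusted p. Endothelial markers summed to 55.34 to 72.13 CPM and 75.98 to 120.1 CPM, and fibroblast markers to 82.92 to 93.11 CPM and 89.77 to 112.1 CPM. Mitochondrial transcripts made up 2.94%, 2.39% and 1.94% of Rhbdf2-/- reads and 1.24%, 1.15% and 0.891% of double-mutant reads. The part of these differences in the results for other genes was not tested.

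**Figure D3:**
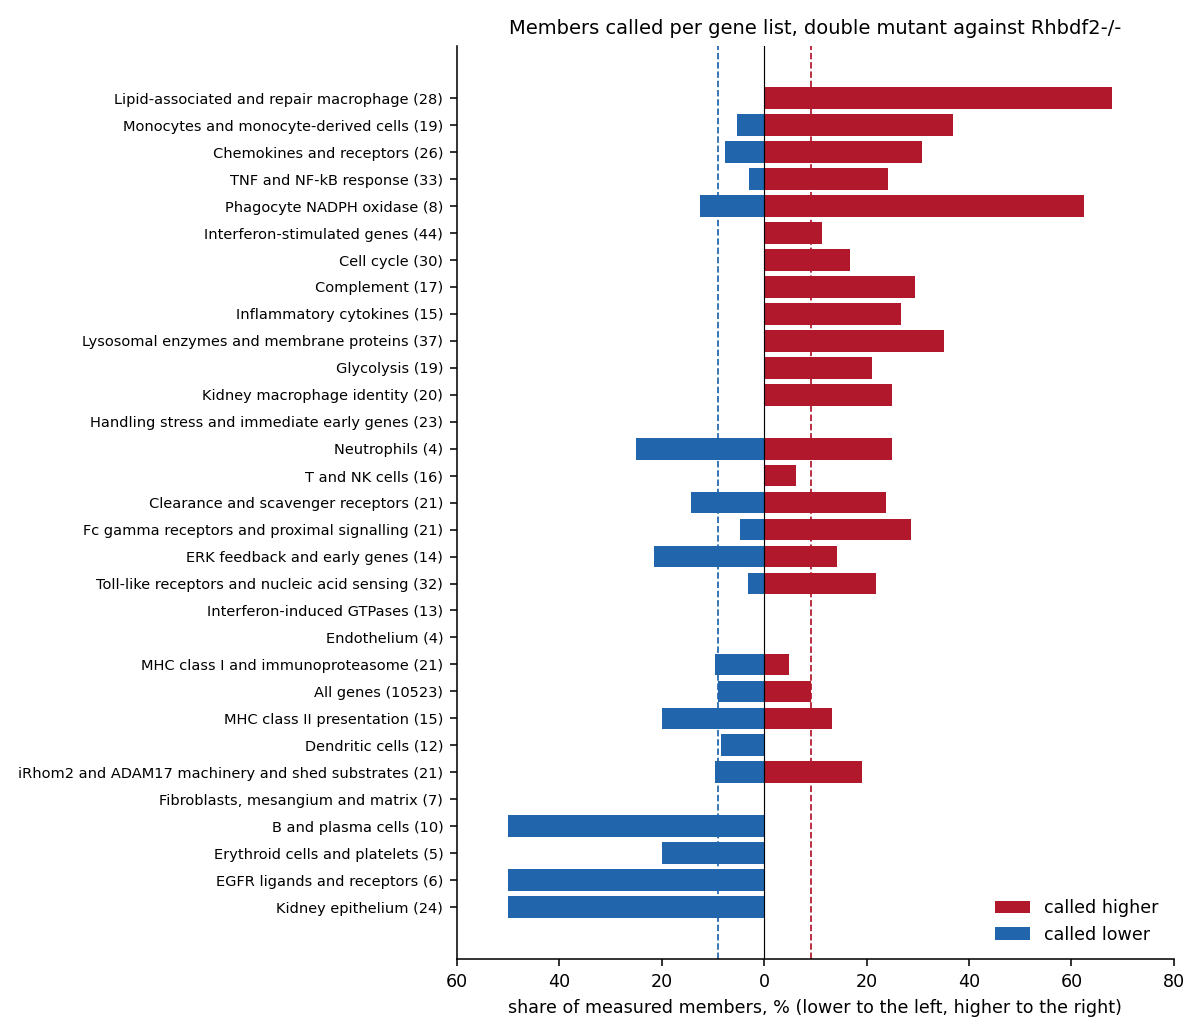
Share of the measured members of each gene list that rose (bars to the right) or fell (bars to the left) in double-mutant against Rhbdf2-/- macrophages, in percent, ordered by the list's median change. The dashed lines mark 9.2% and 9.03%, the shares of all genes, and the lipid-associated list reaches farthest right and the epithelial, EGF receptor and B and plasma cell lists farthest left.

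Many of the genes near Fcgr2b on chromosome 1 were called. Within 5 Mb of the gene 34 of 70 genes were called (48.6%), 12 higher and 22 lower, and within 1 Mb 17 of 30 were (56.7%). On the rest of chromosome 1 the share was 94 of 561 (16.8%). Within 5 Mb of Rhbdf2, which both groups lack, it was 37 of 140 (26.4%), and within 1 Mb 13 of 41 (31.7%), beside 18.2% of all genes. Cd300e, among the largest rises, lies 1.54 Mb from Rhbdf2, and whether linked sequence enters its change was not tested. The number called in the Fcgr2b window was 23, 24, 21, 26, 28 and 27 without Rhbdf2-/- replicates 1 to 3 and double-mutant replicates 1 to 3 in turn. Ifi202b, Pydc4 and Mndal of the p200 cluster lie in this window, about 2.59 to 2.99 Mb from Fcgr2b. Also in it are Igsf9, an adhesion molecule of the immunoglobulin family (-2.88 ± 0.18, adjusted p = 7.3e-06), and F11r, the junction protein JAM-A (-2.74 ± 0.37, adjusted p = 0.0013).

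Itln1, which encodes intelectin, had 0 reads in all 3 Rhbdf2-/- libraries and 101, 112 and 187 reads in double-mutant libraries, at least 46.2-fold higher against a floor of 3 reads per library. The window held 34 of the 1918 called genes, and the other called genes lie outside it. Within 10 Mb of Fcgr2b 47 of 126 genes were called (37.3%). Effects of linked sequence on genes outside the window were not tested. Sequence differences linked to the Fcgr2b allele and effects of the lost receptor cannot be told apart for genes in the window. The labels name the strain as C57BL/6 and give nothing on the source of the allele.

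**Figure D4:**
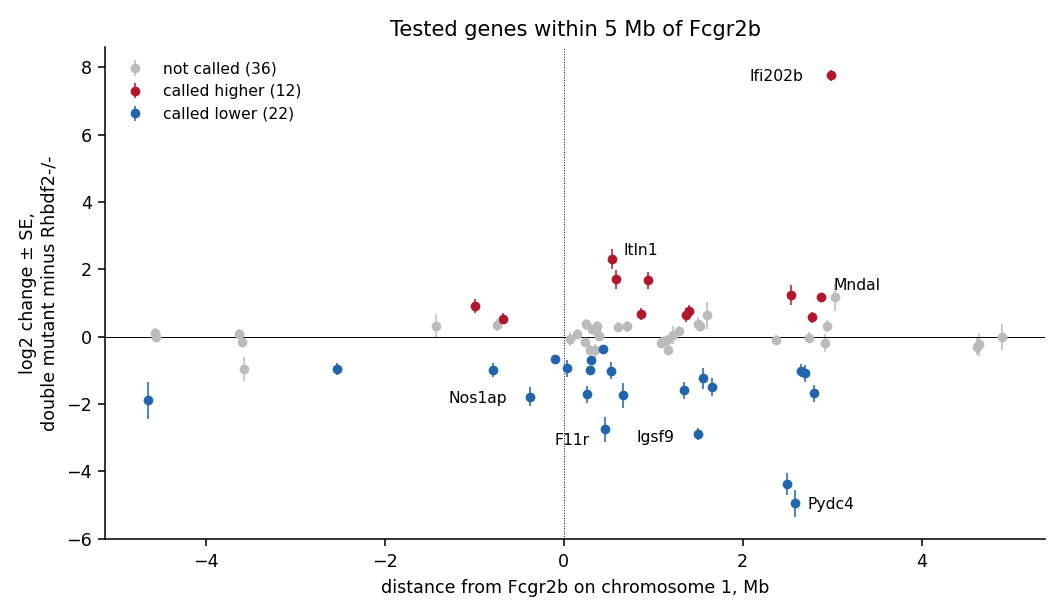
Log2 change with its SE of 70 genes (y axis) against their distance from Fcgr2b in Mb along chromosome 1 (x axis), in double-mutant against Rhbdf2-/- macrophages. The 12 higher and 22 lower genes lie on both sides of Fcgr2b, and 36 genes were not called.

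The same loss with iRhom2 intact, Fcgr2b-/- against wild-type macrophages, shares no library with this comparison and gave more calls, 5551 genes (52.8%), of which 2547 were higher (24.2%) and 3004 lower (28.5%). Of the 1918 genes called without iRhom2, 1491 were called in the same direction with it, which is 77.7% of the first set and 26.9% of the second, and 20 were called in opposite directions. Among the 1491 shared genes the change was larger with iRhom2 intact in 1165 and larger without it in 326. Across all genes the changes had a Pearson correlation of 0.73 and a Spearman correlation of 0.70. These are given as a description, since genes are not independent replicates and all 12 libraries were normalized together.

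The test of the difference between the changes called 1255 genes (11.9%), 635 more positive without iRhom2 (6.03%) and 620 more negative (5.89%). Of these, 276 were also called in double-mutant against Rhbdf2-/- macrophages. In 196 of the 276 both changes were called in the same direction, and in 195 of those 196 the change was smaller without iRhom2. Without Rhbdf2-/- replicates 1, 2 and 3 in turn, 258, 357 and 421 genes were more positive and 259, 338 and 486 more negative. Without double-mutant replicates 1, 2 and 3 in turn, 647, 577 and 344 were more positive and 657, 518 and 361 more negative.

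Many genes of the lipid-associated list had such a smaller change. Its median was 3.02 with iRhom2 intact and 1.5 without it, and the difference was called more negative for 14 of 28 members and more positive for 1. Trem2 stood at 511, 629 and 871 CPM in Fcgr2b-/- libraries beside 199, 148 and 60.0 CPM in double-mutant libraries, and its changes differed by -2.34 ± 0.48 (adjusted p = 0.014). Spp1 stood at 7858, 7836 and 9384 CPM in Fcgr2b-/- beside 766, 572 and 174 CPM in double-mutant libraries, a difference of -4.48 ± 0.76 (adjusted p = 0.0071). Nr1h3 and Cd9, by contrast, had differences of -0.00 ± 0.55 and 0.06 ± 0.33 and were not called. Among lysosomal genes the difference was called more negative for 9 of 37, Ctsd among them (-2.22 ± 0.53, adjusted p = 0.022). Of 30 cell cycle genes 29 rose with iRhom2 intact (median 2.22) against 5 without it, and the difference was called more negative for 16.

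Interferon-stimulated genes went the other way. With iRhom2 intact 0 of 44 rose and 19 fell (median -0.64), beside 24.2% and 28.5% of all genes. Without iRhom2 5 rose and 0 fell, so 11.4% were called beside 18.2% of all genes. The difference was called more positive for 19 of 44 (median 1.25), beside 6.03% of all genes, a count not recomputed with libraries left out. Ifi44 stood at 20.6, 26.7 and 6.04 CPM in Fcgr2b-/- libraries and at 23.0, 25.1 and 56.3 CPM in wild-type, and its changes differed by 2.43 ± 0.61 (adjusted p = 0.026). Oasl1 differed by 1.46 ± 0.38 (adjusted p = 0.028). Pparg, Il12b, Nfkb1 and H2-K1 also differed toward the positive, by 1.30 ± 0.26, 1.88 ± 0.54, 0.69 ± 0.20 and 1.13 ± 0.23. For H2-K1 this was a smaller fall, of -0.69 without iRhom2 and -1.82 with it, whereas the other genes named rose without iRhom2. Adam17 did not, at 0.02 ± 0.17 (adjusted p = 0.95), since it stood at 346 to 449 CPM in Fcgr2b-/- and 198 to 245 CPM in wild-type libraries.

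**Figure D5:**
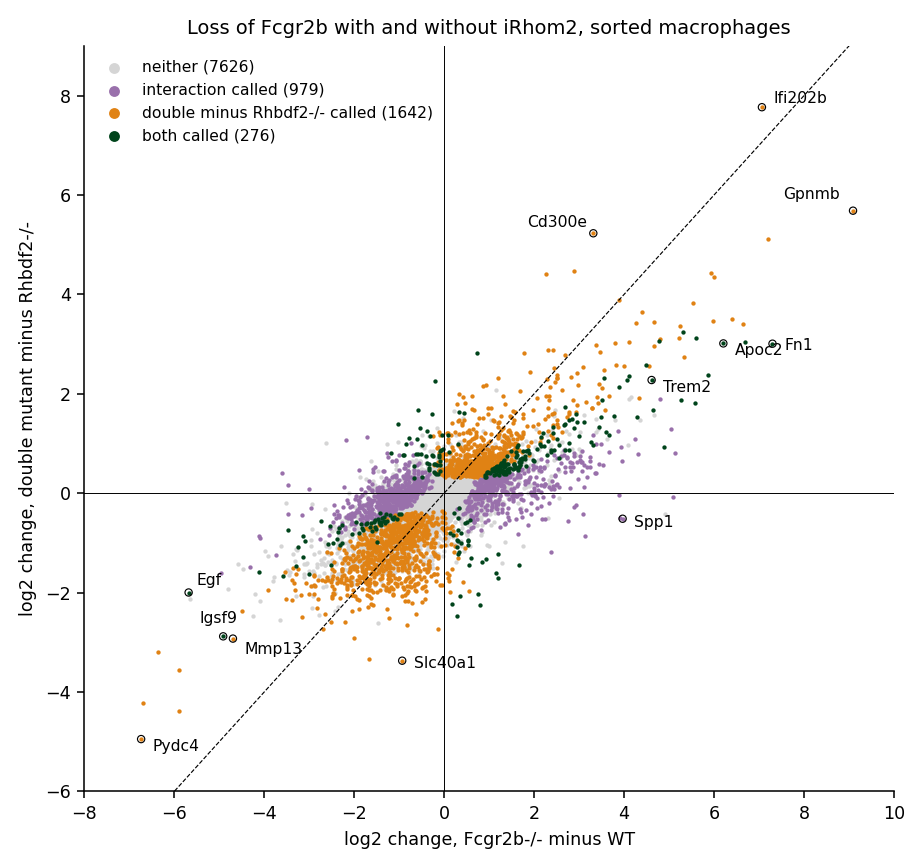
Log2 change on losing Fcgr2b without iRhom2 (double mutant minus Rhbdf2-/-, y axis) against that with iRhom2 (Fcgr2b-/- minus wild-type, x axis), each point a gene, with a dashed line where both are equal. The 276 genes called both for the difference and without iRhom2 lie mostly between that line and the x axis.

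In whole kidney the same genotypes, 4 libraries each, gave 431 calls among 12315 genes (3.5%), 286 higher (2.32%) and 145 lower (1.18%). These counts turned on single libraries, with 8 higher without Rhbdf2-/- kidney replicate 2 and 1117 higher without double-mutant kidney replicate 4, and 16 lower without double-mutant kidney replicate 2 and 449 lower without replicate 4. Of 1787 genes called in macrophages and listed in kidney, 101 were called in the same direction in kidney (5.65%), which is 26.7% of the 378 kidney calls listed in macrophages, and 86 of the 101 were higher. Lyz2 rose in kidney from 49.4 ± 23.2 CPM to 369 ± 233 CPM (mean ± SD, n = 4; log2 change 2.66 ± 0.54 SE, limma adjusted p = 0.025). Itgam rose from 3.97 ± 1.43 CPM to 25.2 ± 19.9 CPM (2.15 ± 0.42, adjusted p = 0.024), and Il1rn and Cxcl13 rose as well. The kidney calls of Lyz2, Itgam and Il1rn held only when Rhbdf2-/- replicate 4 or double-mutant replicate 4 was the library left out, with adjusted p up to 0.0984, 0.0972 and 0.128. That of Cxcl13 also held without double-mutant replicate 1, with adjusted p up to 0.117. Gpnmb went from 0.416 ± 0.106 CPM to 5.22 ± 4.29 CPM and was not called (1.85 ± 0.49, adjusted p = 0.052), though it was called without double-mutant replicate 4 (adjusted p = 0.00277). Each kidney genotype had its own sequencing lane, and effects of lane and of genotype cannot be told apart there.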

How the data were processed

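Gene expression was measured by RNA sequencing (SMART-Seq v4, single reads, per the labels' protocols). Per the file headers, the authors deposited one log2 CPM value per gene and library, and the values show a small prior count. The deposited p-values and F statistics, a score, belong to the authors' own comparisons, per the file headers, and were not used, since none of them sets the double mutant against Rhbdf2-/-. Gene positions are the authors' (mm10, named in the submitters' notes). How reads were aligned and counted, and whether by strand, is not given in the sources used. Antisense and overlapping genes are therefore uncertain. CPM was taken as the antilog of the deposited value. All low values of the 12 macrophage libraries were whole reads within 0.1 read (100%), which gave 30848102 to 34867496 reads per library. Per library, 3 reads, taken as the floor, equal 0.0832 to 0.0988 CPM, which covers counting error only. Groups follow the genotype label. In the double mutants the title gives the Rhbdf2 knockout alone, and the label was followed. Replicate numbers follow accession order and pair nothing.

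The design foresaw a fit with limma if values were normalized. The fit used limma 3.58.1 (R 4.3.3) on log2(CPM+1) (trend, all 4 macrophage groups in the same fit, kidney apart), with Benjamini-Hochberg adjustment over all 10523 genes (12315 in kidney) and calls below 0.05. SE are those of limma. Alternatives were a pseudocount of 0.25, a mean CPM of at least 5, the deposited log2 scale, equal medians, quantile normalization, voom on recovered reads, a fit without trend, a robust fit, the 2 groups fitted alone and each library left out. The procedure was run on simulated data with 200 changed genes and the same spread set for every gene. Its outcome is not reported here and says nothing on genes whose replicates spread widely. Named were both targeted genes, the 12 largest rises and 12 largest falls of called genes that averaged 1 or more in log2 CPM and had separated groups, up to 5 called members of each of 30 gene lists, up to 6 called neighbours of Fcgr2b, up to 8 genes of the interaction and 13 genes given whatever their result. From these the text gives the ones with a known role, and some are not reported here. Emr1, Chil3, Timp3, Gla, Stab1, Mfge8 and the fold bound of Itln1 were added after their values were seen. Members and lists were chosen with earlier results of these data known. There were 0 columns of values without a sample. Promoters were searched in RefSeq windows of 300 bases. Figures were drawn with matplotlib 3.10.9.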

Additional observations from a re-analysis of the deposited data

Results flagged for a closer look

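The effect of losing Fcgr2b differed with the Rhbdf2 genotype for the genes below, by limma's interaction test (adjusted p below 0.05 over all genes). Each value is the change without iRhom2 less the change with it, on the log2(CPM+1) scale. Among genes of lipid-handling and activated macrophages it stood at -4.48 for Spp1, -4.29 for Fn1 (fibronectin), -3.96 for Trem1, -2.47 for Clec4d, -2.34 for Trem2, -2.28 for the scavenger receptor Msr1 and -1.34 for Igf1, while Pparg, also listed for lipid-associated macrophages, stood at 1.3. Lysosomal and secreted proteins stood at -2.22 for Ctsd, -1.95 for Cfp, -1.24 for Ccl9 and -1.22 for Galns. Genes of dividing cells and of glycolysis stood at -2.36 for Ccnb1, -1.84 for Tk1, -0.974 for Tubb5, -0.922 for Ldha, -0.869 for Pkm and -0.551 for Eno1. Slc5a2, a tubular transporter, stood at -2.75.

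Of interferon and antigen presentation genes, the difference was more positive at 2.43 for Ifi44, 2.18 for H2-Ob, 1.46 for Oasl1, 1.22 for Mndal and 1.13 for H2-K1, and more negative at -1.58 for Ifi30, which acts in class II presentation. Signalling and immune genes stood at 1.88 for Il12b, 1.8 for Nlrp1b, 0.956 for Cd180, 0.688 for Nfkb1 and 0.652 for Ptpn6. The tubular gene Egf stood at 3.68, and the neighbours of Fcgr2b at 2.03 for Igsf9 and 0.515 for B4galt3. The remaining genes with a small p were Adam33 at 2.73, Paxbp1 at 1.85, Dleu2 at 1.64 and Ccnt2 at 1.61. Some positive values were falls that were smaller without iRhom2 than with it. The changes, in that order, were -2 and -5.68 for Egf, -2.88 and -4.91 for Igsf9 and -0.987 and -1.5 for B4galt3. They were -0.56 and -2.74 for H2-Ob, -0.692 and -1.82 for H2-K1 and -0.734 and -3.47 for Adam33. Others were rises without iRhom2, such as Ifi44 at 1.4 and -1.03.

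In kidney, 1 library stood apart from the other 3 of its group by the gap to its nearest neighbour for Clec4e, at 0.877 CPM in double-mutant replicate 4, and for Il1rn, at 1.56 CPM in Rhbdf2-/- replicate 4. Chance alone flags about 1 in 20 groups, and groups of 3 libraries, which hold all macrophage values, are too small for this check.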

How the results depend on the processing

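For double-mutant against Rhbdf2-/- macrophages, leaving out 1 library gave 374 to 830 higher and 218 to 825 lower genes, beside 968 and 950. Without trend 813 were higher and 862 lower. The other alternatives gave 791 (voom) to 1450 (equal medians) higher and 635 (voom) to 1023 (the 2 groups alone) lower. Of the 1426 voom calls 1417 were among the 1918. Left-out libraries gave 258 to 647 positive and 259 to 659 negative differences for the interaction, 2143 to 2568 higher and 2440 to 3104 lower genes for Fcgr2b-/- against wild-type, and 8 to 1117 higher and 16 to 449 lower genes in kidney. Of 123 named calls in this comparison, 56 held under every alternative run and 67 were lost under at least 1. Of the named values 4 changed sign, none of them called. They were Fcgr3 at equal medians (0.032), Tlr7 under quantile normalization (-0.065), Spp1 without double-mutant replicate 3 (-0.940 to 0.125 over left-out libraries) and, in kidney, Igsf9 without double-mutant replicate 4 (-0.252 to 0.0574). The cause was not tested. With 3 libraries per group the spread rests on few samples. No paired analysis was possible because the replicate numbers follow accession order and the labels tie no library to another.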
